A study of Mus musculus with 6 samples.

Results

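The levels of 7 genes of the neurotrophin system were followed in bulk RNA-seq of mouse cerebella, namely the ligand genes *Ntf3*, *Bdnf* and *Ntf5* and the receptor genes *Ntrk2*, *Ntrk3*, *Ngfr* and *Sort1*. They were taken by gene symbol from a count table of 54532 genes, in which each of the 7 symbols had 1 row. The cerebella were collected at postnatal day 1 (P1) and gave 3 control and 3 mutant libraries. The labels give the controls as littermates of genotype Tox3f/f, with both *Tox3* alleles floxed and no Cre, and the mutants as Nestin-cre;Tox3f/f. Nestin-Cre is a transgene that makes Cre recombinase in neural progenitors, so the deletion was meant for the nervous system and not for 1 cerebellar cell type. All 3 mutants and no control carried Nestin-Cre, so effects of the transgene itself cannot be told apart from those of the deletion. The comparison of the groups asks how neurotrophin signaling genes stand in the cerebellum when the transcription regulator Tox3 is targeted.

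Neurotrophins are secreted growth factors that are made as longer precursors and cut by proteases. The mature factors act through Trk receptor tyrosine kinases: TrkC, encoded by *Ntrk3*, is the main receptor of neurotrophin-3, and TrkB, encoded by *Ntrk2*, that of BDNF and neurotrophin-4. The p75 receptor, encoded by *Ngfr*, binds all neurotrophins and, together with sortilin, encoded by *Sort1*, binds their precursors. In the developing cerebellum BDNF and neurotrophin-3 are known for roles in the survival, migration and maturation of granule neurons, and p75 is known from granule neuron progenitors (GNPs) and Purkinje cells.

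The 6 libraries held between 15391854 and 17178478 counts on genes, and 3 counts were worth at most 0.196 CPM (counts per 1000000 TMM-normalized counts). The targeted gene *Tox3* was counted at 63.9 ± 0.760 CPM in the libraries labelled control and 59.3 ± 3.95 CPM in those labelled mutant (SD, n = 3 each), with overlapping ranges. A gene count covers all exons, also those outside a deletion, so this count cannot be used to check the labels, and directions are given for the libraries as labelled. *Atoh1*, which encodes the transcription factor that defines GNPs, stood at 31.8 ± 0.873 against 0.362 ± 0.186 CPM. Markers of granule cells, Purkinje cells and glia were present in all libraries, whereas 7 markers of midbrain and hindbrain summed to between 0.976 and 3.43 CPM per library. Counts from the Y chromosome were present in control 1, mutant 1 and mutant 3 and at or near 0 in the other 3 libraries. In bulk tissue, fewer cells of a type and less RNA per cell cannot be told apart.

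The largest difference lay in a ligand and not in a receptor. *Ntf3* fell 10.7-fold in the mutant libraries, *Ngfr* fell by 0.52 on the log2 scale, and *Ntrk2* was higher by 0.28 on the log2 scale. *Bdnf*, *Ntrk3* and *Sort1* did not pass the test, and *Ntf5* had too few counts to be tested. A gene counted as called when its adjusted p was under 0.01 and its log2 fold change was over 0.5 in size, and by this rule 2 of the 6 tested genes were called lower and 0 higher, beside 3.63% lower, 3.03% higher and 6.66% in either direction among all 17505 tested genes. At an adjusted p under 0.01 with any fold, 2 were lower and 1 higher, beside 7.24%, 6.55% and, in either direction, 13.8% of all tested genes. The 3 control and 3 mutant values did not overlap for 4 of the 6, with 2 lower and 2 higher, beside 20.1% lower, 20.4% higher and 40.5% in either direction among all tested genes. The plot of each gene's CPM by library and the plot of fold changes show these values.

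**Figure D1:**
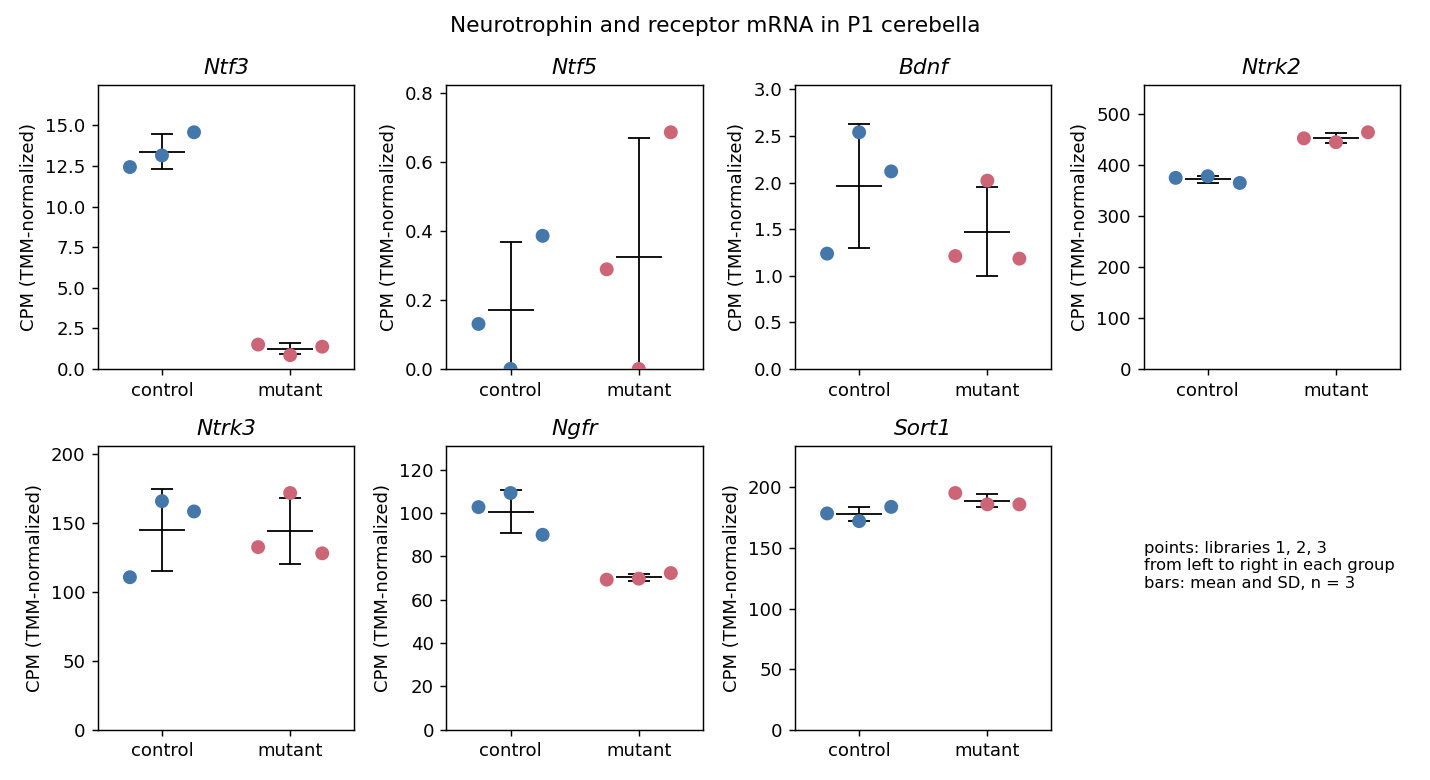
TMM-normalized CPM (vertical axes, each from 0) of the 7 genes in the 3 control and 3 mutant libraries. Points are libraries 1 to 3 from left to right in each group, and bars give the mean and SD (n = 3). For *Ntf3* the control libraries lie between 12.4 and 14.6 CPM and the mutant libraries between 0.847 and 1.5 CPM.

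**Figure D2:**
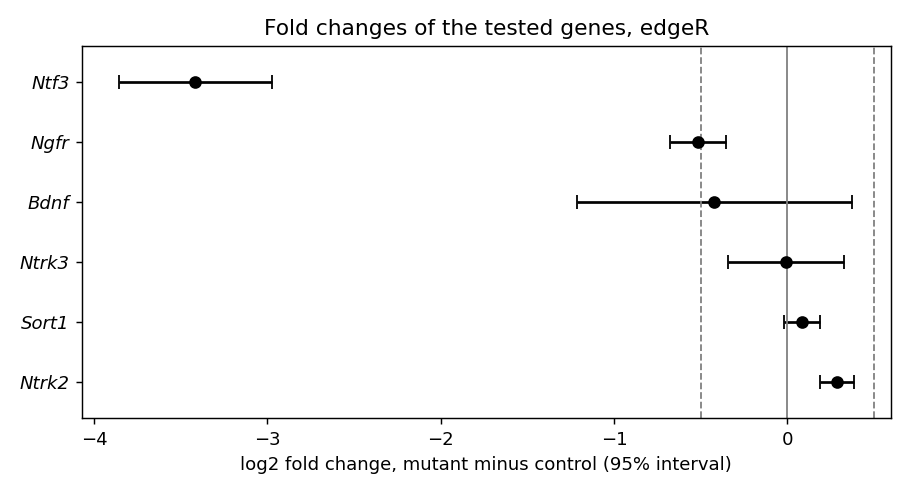
Log2 fold change of mutant minus control (horizontal axis) from edgeR's quasi-likelihood test for the 6 tested genes. Points are estimates, bars 95% intervals, and dashed lines the fold change threshold of 0.5 in each direction. *Ntf3* lies at −3.42, *Ngfr* on the threshold at −0.52, and *Ntrk2* at 0.28, inside both dashed lines.

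The stretches before the annotated starts of the 3 genes with an adjusted p under 0.01 are given here because *Atoh1*, nearly absent from the mutant libraries, encodes a basic helix-loop-helix factor, and such factors bind E-boxes of the form CANNTG. RefSeq (build GRCm38.p6) gave 11 promoter windows for 4 of the 7 genes, each reaching from 250 bases before to 50 after a start. *Bdnf* had 7 windows, *Ntf3* 2, *Ngfr* 1 and *Ntrk2* 1. The printed part of each window holds no annotated exon. It lies on the minus strand at chr6:126164961-126165210 for the downstream start of *Ntf3*, at chr6:126166911-126166994 for its upstream start and at chr11:95587736-95587948 for *Ngfr*, and on the plus strand at chr13:58806319-58806568 for *Ntrk2*. Each reads 5′ to 3′ on the strand of its gene, and capitals mark E-boxes.
Ntf3 downstream start: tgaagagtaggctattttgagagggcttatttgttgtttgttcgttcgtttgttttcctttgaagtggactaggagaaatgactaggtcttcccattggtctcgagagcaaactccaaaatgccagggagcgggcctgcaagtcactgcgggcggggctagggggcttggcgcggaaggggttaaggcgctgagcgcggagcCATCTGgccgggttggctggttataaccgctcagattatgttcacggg
Ntf3 upstream start: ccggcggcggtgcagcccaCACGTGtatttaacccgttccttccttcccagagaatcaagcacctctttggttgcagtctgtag
Ngfr: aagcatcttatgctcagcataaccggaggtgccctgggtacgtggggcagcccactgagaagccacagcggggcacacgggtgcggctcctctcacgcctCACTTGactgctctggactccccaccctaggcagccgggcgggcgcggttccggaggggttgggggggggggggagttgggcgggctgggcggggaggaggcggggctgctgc
Ntrk2: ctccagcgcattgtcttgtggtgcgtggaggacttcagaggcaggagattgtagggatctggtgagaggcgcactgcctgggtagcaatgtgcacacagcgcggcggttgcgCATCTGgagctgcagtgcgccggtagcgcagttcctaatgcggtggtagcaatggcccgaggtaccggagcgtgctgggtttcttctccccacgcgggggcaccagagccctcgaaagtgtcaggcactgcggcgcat
Each stretch held 1 E-box. CATCTG, which is CAGATG on the other strand, began 48 bases before the downstream start of *Ntf3* and 138 bases before the start of *Ntrk2*. CACGTG began 231 bases before the upstream start of *Ntf3*, and CACTTG 150 bases before that of *Ngfr*. Within the exons of these windows, and so not printed, lay a CAAGTG 71 bases before the upstream start of *Ntf3* and a CAGCTG 25 bases before the start of *Ngfr*. CANNTG reads the same on both strands and occurred in 72.3% of 32851 RefSeq promoter windows of 300 bases, CAGATG in 17.2% and CAGCTG in 16.3%. The 7 windows of *Bdnf* held 0 to 2 E-boxes each. Windows of genes that were lower, higher or did not pass the test thus held E-boxes, and a match is a description of the letters and not a binding site.

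*Ntf3* (ENSMUSG00000049107, minus strand, chr6:126101412-126166910 of GRCm38) encodes neurotrophin-3, the TrkC ligand. It was counted 191, 202 and 227 times in control 1 to 3 and 26, 13 and 22 times in mutant 1 to 3. As CPM these were 12.4, 13.2 and 14.6 against 1.5, 0.847 and 1.37. Every mutant library lay far below every control library, and the gene was detected in all 6, above the level of 3 counts. The means were 13.4 ± 1.09 and 1.24 ± 0.345 CPM (SD, n = 3), and the log2 fold change was −3.42 (standard error, SE, 0.20, 95% interval −3.86 to −2.97, adjusted p = 5.524e-06 in edgeR's quasi-likelihood fit, Benjamini-Hochberg adjusted). Among the 17505 tested genes *Ntf3* had the 12th lowest log2 fold change. In the authors' FPKM, which divide counts by exon length, *Ntf3* lay at the 60.3rd percentile of tested genes in controls and at the 13.6th in mutants.

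Markers of granule cells fell in the same libraries. All 7 GNP markers were called lower, with a median log2 fold change of −1.09, *Atoh1* at −6.40, further down than *Ntf3*, and *Barhl1*, a homeobox gene of this lineage, at −2.59. Of 7 markers of granule neurons 5 were called lower, with a median log2 fold change of −0.79 and *Neurod1*, a differentiation factor, at −1.16 and *Nhlh1*, a gene of newly formed neurons, at −1.78. The summed GNP markers ranged from 1031 to 1123 CPM in controls and from 440.0 to 469 CPM in mutants, and no marker of either list was at 0. Per 100 CPM of summed GNP markers, *Ntf3* stood at 1.11, 1.26 and 1.41 CPM in the controls and at 0.320, 0.193 and 0.295 CPM in the mutants. Per 100 CPM of summed granule neuron markers, the level of *Ntf3* was 0.372, 0.413 and 0.441 CPM in the controls and 0.0662, 0.0359 and 0.0618 CPM in the mutants. *Ntf3* was thus lower in every mutant library also relative to either marker sum, but not relative to *Atoh1*, which fell further. The log2 fold changes of the 7 GNP markers ran from −6.40 to −0.53, so their sum is not a measure of GNP number. The part of cell composition in the *Ntf3* result was not tested beyond these values.

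Among 11072 other genes whose mean over the 6 libraries was 10 CPM or more, 3 were named as closest to *Ntf3* by Pearson's r of log2 CPM. *Tlx3*, a homeobox gene, had r = 0.999 and a log2 fold change of −4.70, *Zfp664* had r = 0.998 and −0.25, and *Etaa1*, a gene of the DNA replication stress response, had r = 0.997 and −0.51. The 6 points share their libraries with every gene and fall into the control and mutant groups, so r is a description, and fold changes of these 3 genes differed widely in size.

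*Bdnf* (ENSMUSG00000048482, plus strand, chr2:109674700-109727007), which encodes the TrkB ligand BDNF, was counted 19, 39 and 33 times in the controls and 21, 31 and 19 times in the mutants. These counts were 1.24, 2.54 and 2.12 CPM against 1.21, 2.02 and 1.18 CPM, and the groups overlapped. The log2 fold change was −0.42 (SE 0.36, 95% interval −1.21 to 0.37, edgeR quasi-likelihood adjusted p = 0.4273). At this depth neither a fall by 1.21 nor a rise by 0.37 on the log2 scale could be told from no change. *Bdnf* is transcribed from many alternative first exons, and the 11 annotated transcripts are summed in its count.

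*Ntf5* (ENSMUSG00000074121, plus strand, chr7:45413695-45417179), the gene of neurotrophin-4, the other TrkB ligand, was counted 2, 0 and 6 times in the controls and 5, 0 and 11 times in the mutants. The sums of 8 (95% exact Poisson interval 3.45 to 15.8) and 16 (9.15 to 25.98) overlap in their intervals, which cover counting error only. With 1 library at 0 in each group, no difference was detectable at this depth.

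Levels of different genes were compared per exon length. Over the ligand genes *Ntf3*, *Bdnf* and *Ntf5*, the FPKM summed to 7.43, 8.01 and 8.91 in the controls and to 1.18, 0.810 and 1.25 in the mutants. *Ntf3* made up 96.7%, 94.9% and 94.6% of the sum in the controls and 74.2%, 60.3% and 64.1% in the mutants. Of these 3 ligand genes *Ntf3* gave nearly the whole sum in the controls, and in the mutants the sum was smaller and more mixed. The shares depend on the summed exon lengths, 1714 bases for *Ntf3* and 6217 for *Bdnf*. In mutant 2 *Bdnf* had more counts than *Ntf3*, 31 against 13. It had fewer in mutant 1, 21 against 26, and in mutant 3, 19 against 22. The share of *Bdnf* was 2.65%, 5.05% and 3.79% in the controls and 16.5%, 39.7% and 15.3% in the mutants, although its own FPKM was 0.313 ± 0.106 and 0.235 ± 0.0755 (SD, n = 3). The log2 ratio of *Ntf3* to *Bdnf* FPKM within a library, which does not depend on the scaling between libraries, was 4.69 ± 0.480 in controls and 1.61 ± 0.875 in mutants. The difference of −3.07 had a two-sided exact permutation p = 0.1, the smallest that 3 against 3 libraries can give, and 0.2 after adjustment over the 2 ratios tested.

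**Figure D3:**
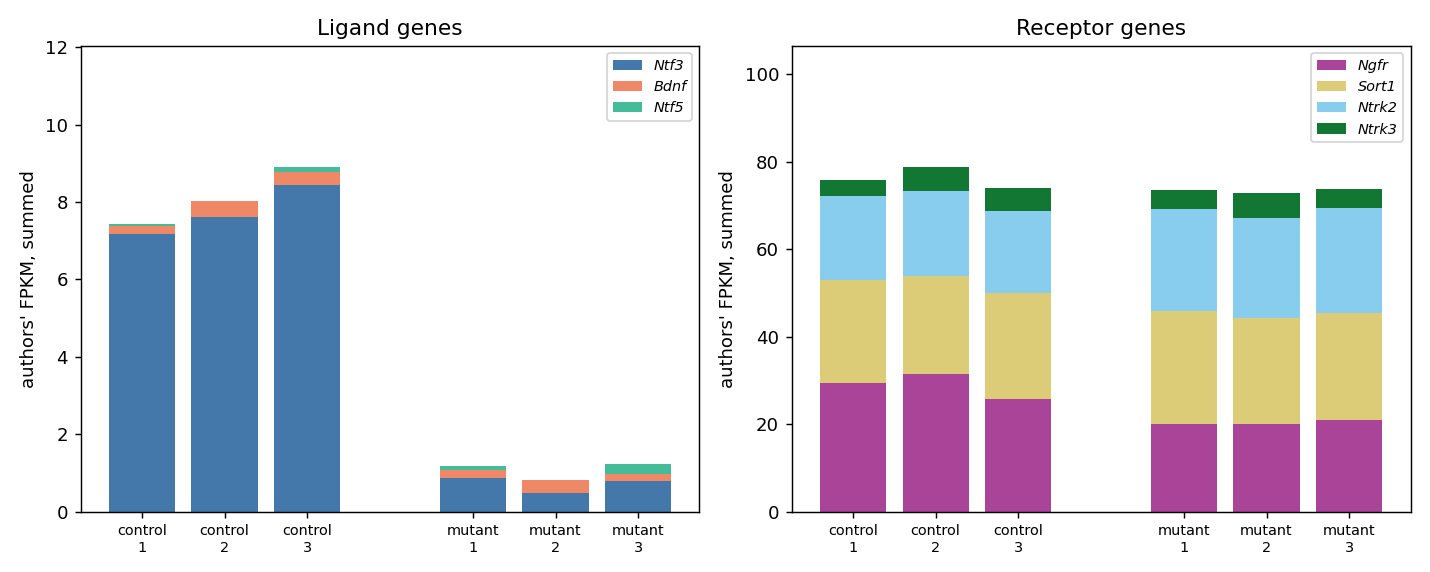
The authors' FPKM summed within each library (vertical axes, from 0) over 3 ligand genes (left) and 4 receptor genes (right), with 1 bar per library and colors for genes. The ligand sum lies between 7.43 and 8.91 in controls and between 0.810 and 1.25 in mutants, whereas the receptor sums lie between 72.7 and 78.9 in all 6 libraries.

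*Ngfr* (ENSMUSG00000000120, minus strand, chr11:95568818-95587735) encodes p75, a receptor of the tumor necrosis factor receptor family. Its level was 102.7, 109.2 and 89.9 CPM in control 1 to 3 and 69.2, 69.7 and 72.3 CPM in mutant 1 to 3. All mutant libraries lay below the lowest control library, and they lay close together. The means were 101 ± 9.81 and 70.4 ± 1.64 CPM (SD, n = 3), with a log2 fold change of −0.52 (SE 0.07, 95% interval −0.68 to −0.35, edgeR quasi-likelihood adjusted p = 0.000792). The call rests on the fold change threshold of 0.5, since the log2 fold change was −0.453 without control 2, −0.498 without mutant 2 and −0.497 with library size in place of TMM. A test against a log2 fold change of 0.5 itself (edgeR glmTreat) gave an adjusted p of 1, and over all alternatives it ran from 3.321e-10 to 1.

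*Ngfr* was set beside the markers of cell types known to carry p75. Per 100 CPM of summed GNP markers *Ngfr* stood at 9.14, 10.5 and 8.72 CPM in the controls and at 14.8, 15.8 and 15.6 CPM in the mutants, and per 100 CPM of summed granule neuron markers at 3.07, 3.43 and 2.72 against 3.05, 2.95 and 3.26 CPM. The first ratio was higher in every mutant library and the second overlapped. Of 8 Purkinje cell markers 5 were called higher and 0 lower, with a median log2 fold change of 0.63, among them *Skor2*, a corepressor gene, at 0.78 and *Car8*, a gene of the carbonic anhydrase family, at 0.63. Per 100 CPM of summed Purkinje markers *Ngfr* stood at 6.92, 7.04 and 6.08 CPM in the controls and 3.36, 2.87 and 3.15 CPM in the mutants. The part of any of these cells in the *Ngfr* result was not tested. p75 is also made by Schwann cells, whose 4 markers summed to 5.27, 0.911 and 0.514 CPM in the controls and to 29.1, 21.5 and 4.42 CPM in the mutants, with 0 of the 2 tested called and none of the 4 at 0 in every library.

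The tested genes most like *Ngfr* over the 6 libraries were *Helz*, *Grid2ip* and *Cep57*, with Pearson's r of 0.999, 0.999 and 0.998 among 11071 genes. Their log2 fold changes were −0.17, −0.49 and −0.34. *Grid2ip* encodes a protein that binds the delta glutamate receptor of Purkinje cells, but all 8 Purkinje cell markers had positive log2 fold changes. Here too the 6 points fall into the control and mutant groups, so r is a description.

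*Ntrk2* (ENSMUSG00000055254, plus strand, chr13:58806569-59133970), the TrkB gene, was counted at 375.1, 378.3 and 365.1 CPM in the controls and at 452.7, 445.2 and 464.6 CPM in the mutants. The groups did not overlap, and the spread within each was small. The means were 373 ± 6.88 and 454 ± 9.80 CPM (SD, n = 3). The log2 fold change was 0.28 (SE 0.04, 95% interval 0.19 to 0.38, edgeR quasi-likelihood adjusted p = 0.00133), which is under the fold change threshold of 0.5. Markers of Bergmann glia and astrocytes, cells known to carry truncated TrkB, were set beside it. Of these 8 markers 3 were called higher and 0 lower, with a median log2 fold change of 0.41, *Gdf10* of Bergmann glia at 1.18 and *Gfap* of astrocytes at 1.42. They summed to 3588 to 3634 CPM in the controls and 4676 to 5034 CPM in the mutants, with none at 0. Per 100 CPM of these markers *Ntrk2* was counted at 10.3, 10.4 and 10.2 CPM in the controls and at 9.68, 8.84 and 9.51 CPM in the mutants, so that the ratio was lower in every mutant library while the gene itself was higher. The part of glia in the *Ntrk2* result was not tested.

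*Ntrk3* (ENSMUSG00000059146, minus strand, chr7:78175959-78738012), the gene of the neurotrophin-3 receptor TrkC, was counted at 110.5, 165.7 and 158.2 CPM in the controls and at 132.4, 171.6 and 127.9 CPM in the mutants. The ranges overlapped and the means of 145 ± 29.9 and 144 ± 24.1 CPM (SD, n = 3) were close. Its log2 fold change was −0.01 (SE 0.15, 95% interval −0.34 to 0.33, edgeR quasi-likelihood adjusted p = 0.9733). The interval of the ligand *Ntf3*, −3.86 to −2.97, lay far from that of its receptor. The ratio of *Ntf3* to *Ntrk3* FPKM within a library was 1.98, 1.40 and 1.62 in the controls and 0.199, 0.0869 and 0.189 in the mutants.

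The spread of *Ntrk3* followed another division of the libraries. The 3 libraries with Y-chromosome counts held *Ntrk3* at 110.5 to 132.4 CPM and the 3 without at 158.2 to 171.6 CPM. *Bdnf* was divided in the same way, at 1.18 to 1.24 CPM with and 2.02 to 2.54 CPM without Y-chromosome counts, and the other 5 genes overlapped. Such a division was found for 13.2% of all tested genes, and no test was made of it. Within each of the 2 sets of libraries the mutant values of *Ntrk3* lay above the control values, but each comparison rests on 1 library. Control 1 was the only control with Y-chromosome counts, and mutant 2 was the only mutant without them. With the mean log2 CPM of 4 Y-chromosome genes in the model, the log2 fold change of *Ntrk3* was 0.15 (edgeR quasi-likelihood adjusted p = 0.04522, with 0.04522 to 1 over its alternatives), which is short of the threshold of 0.01. That of *Bdnf* was −0.15 (edgeR adjusted p = 0.7667, with 0.2042 to 1 over its alternatives).

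**Figure D4:**
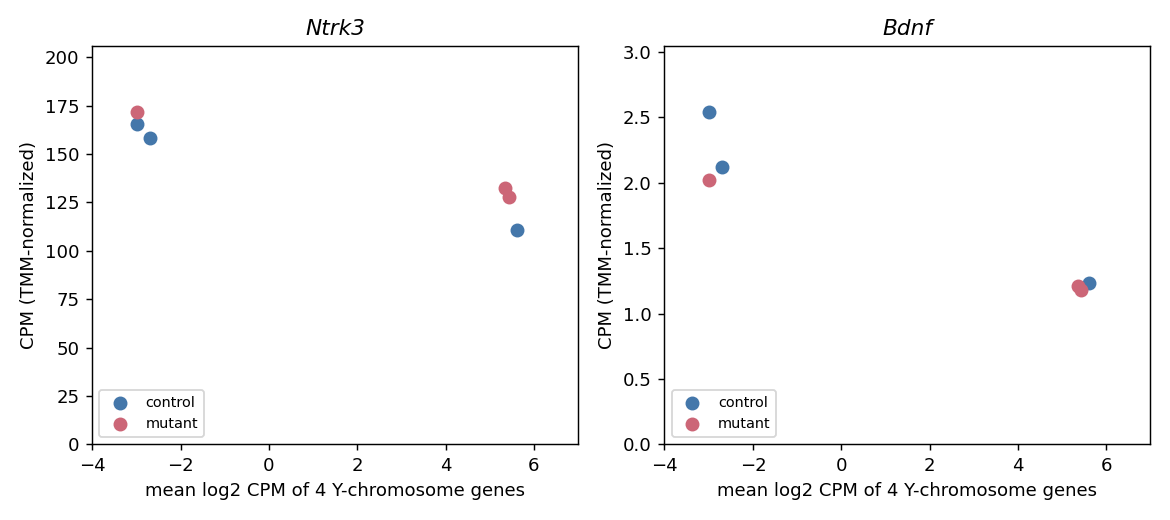
CPM of *Ntrk3* and *Bdnf* (vertical axes, from 0) against the mean log2 CPM of the Y-chromosome genes *Ddx3y*, *Eif2s3y*, *Kdm5d* and *Uty* (horizontal axes), with 1 point per library and colors for the groups. The 3 libraries near −2.99 to −2.69 on the horizontal axis lie above the 3 near 5.35 to 5.61 for both genes.

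*Ntrk2* and *Ntrk3* each give rise to full-length receptors and to truncated ones without the kinase. The annotation (GENCODE M21) holds 7 protein-coding transcripts of *Ntrk2* with coding parts of 466 to 821 codons and 6 of *Ntrk3* with 82 to 864 codons, and gene counts do not separate them. The log2 ratio of *Ntrk2* to *Ntrk3* FPKM was 2.03 ± 0.326 in controls and 2.32 ± 0.259 in mutants, a difference of 0.28 with a two-sided exact permutation p = 0.2 (0.2 adjusted over the 2 ratios). An antisense gene, *Gm9885*, lies in an intron of *Ntrk3* and shares no exon bases with it. It was counted 30, 50 and 61 times in the controls and 81, 100 and 68 times in the mutants, with a log2 fold change of 0.75 (edgeR quasi-likelihood adjusted p = 0.0696), and it was looked at after its values had been seen. No other gene that overlaps 1 of the 7 had more than 5 counts in any library.

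*Sort1* (ENSMUSG00000068747, plus strand, chr3:108284082-108361511), which encodes the sorting receptor sortilin, was counted at 178.5, 172.1 and 183.9 CPM in the controls and at 195.4, 186.0 and 186.0 CPM in the mutants. The groups were next to each other without overlap. The log2 fold change was 0.09 (SE 0.05, 95% interval −0.02 to 0.19, edgeR quasi-likelihood adjusted p = 0.2131), so a rise beyond 0.19 lies outside the interval.

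Among the 7 genes, the order of FPKM in the controls was *Ngfr* at 28.9 ± 2.82, *Sort1* at 23.3 ± 0.767, *Ntrk2* at 19.2 ± 0.354, *Ntf3* at 7.74 ± 0.633, *Ntrk3* at 4.76 ± 0.985, *Bdnf* at 0.313 ± 0.106 and *Ntf5* at 0.0642 (SD, n = 3). No neighbours in that order overlapped over the 3 libraries. In the mutants the order was *Sort1* at 24.9 ± 0.796, *Ntrk2* at 23.4 ± 0.604, *Ngfr* at 20.3 ± 0.517, *Ntrk3* at 4.74 ± 0.766, *Ntf3* at 0.720 ± 0.204, *Bdnf* at 0.235 ± 0.0755 and *Ntf5* at 0.122. *Bdnf* and *Ntf5* overlapped there. *Ngfr* thus moved from the first place to the third and *Ntf3* from above to below *Ntrk3*. The exon lengths behind these values run up to 30170 bases for *Ntrk3*, summed over all its transcripts, so the FPKM of a gene read mainly from short transcripts is too low.

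In FPKM the summed receptor genes of the mutants lay just under those of the controls, and the shares within the sum changed more. The FPKM of *Ngfr*, *Sort1*, *Ntrk2* and *Ntrk3* summed to 75.7, 78.9 and 73.9 in the controls and to 73.6, 72.7 and 73.7 in the mutants. *Ngfr* held 39.0%, 39.8% and 34.99% of this sum in the controls and 27.2%, 27.5% and 28.4% in the mutants, and *Ntrk2* held 25.4%, 24.7% and 25.4% against 31.8%, 31.4% and 32.6%. The ratio of *Ntrk2* to *Ngfr* FPKM was 0.653, 0.619 and 0.725 in the controls and 1.17, 1.14 and 1.15 in the mutants, on either side of 1. The side of 1 depends on the summed exon lengths, 19292 bases for *Ntrk2* and 3446 for *Ngfr*. In CPM *Ntrk2* exceeded *Ngfr* in every library. The place of the mutant sum under the control sum also depends on the lengths. In CPM, which are not divided by length, the 7 genes with the ligands summed to 780.6, 841.0 and 814.2 in the controls. In the mutants they summed to 852.6, 875.3 and 853.9 CPM, above every control.

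Other genes of the pathway were grouped into 7 lists by role, with 114 genes of which 110 were tested. In these lists 1 gene was called lower and 1 higher, beside the 3.63% and 3.03% of all tested genes. At an adjusted p under 0.01 with any fold, 8 were lower and 10 higher, beside 7.24% and 6.55% of all tested genes, and the median log2 fold change was 0.01 against −0.01 for all tested genes. The groups did not overlap for 20 lower and 26 higher genes of these lists, beside 20.1% and 20.4% of all tested genes. The counts with any fold and without overlap thus lay near the background, whereas the 1 gene called in each direction lay under its background share.

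**Figure D5:**
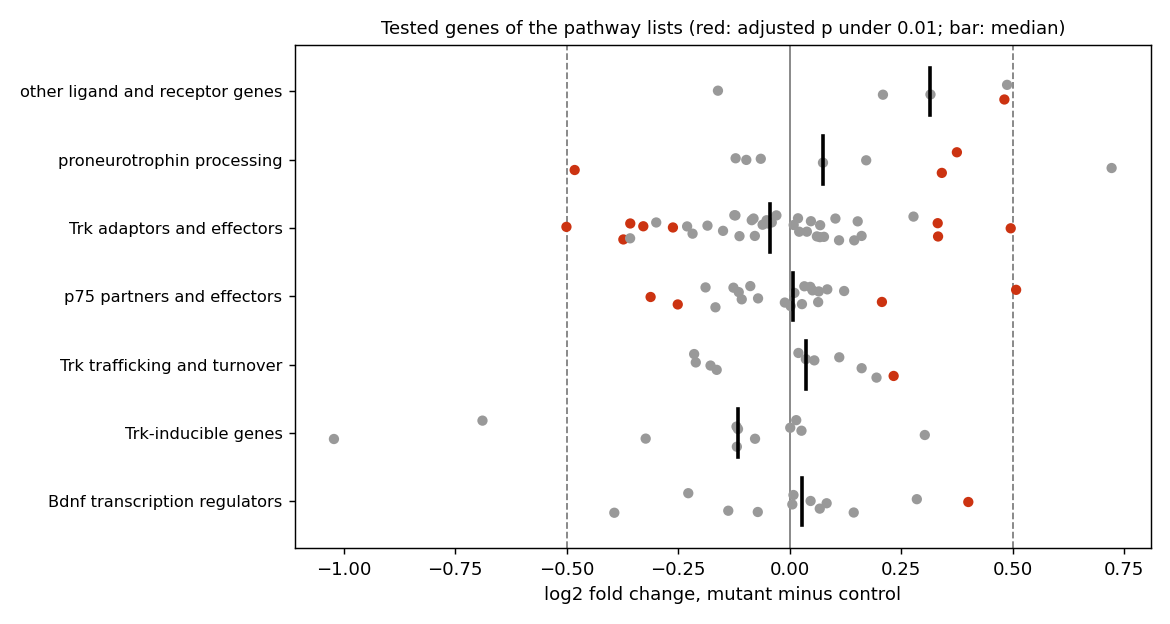
Log2 fold change of mutant minus control (horizontal axis) of the 110 tested genes of the 7 pathway lists (vertical axis), 1 point per gene. Red points have an adjusted p under 0.01, bars mark each list's median, and dashed lines the fold change threshold of 0.5. The list medians lie between −0.12 and 0.32.

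Of the 40 genes of Trk adaptors and effectors, all tested, 1 was called lower and 0 higher, and the median log2 fold change was −0.04. *Mapk7*, which encodes the kinase ERK5 that carries Trk signals to the nucleus, was counted at 103 ± 3.19 CPM in controls and 72.7 ± 4.59 CPM in mutants, with a log2 fold change of −0.50 (SE 0.06, edgeR quasi-likelihood adjusted p = 0.0003312), just past the threshold. *Map2k1*, the gene of the kinase MEK1 of the ERK cascade, stood just under it on the other side at 42.6 ± 0.731 and 60.0 ± 2.37 CPM, with a log2 fold change of 0.50 (adjusted p = 0.0005229). The adaptor gene *Gab1* (log2 fold change −0.33) and the kinase gene *Akt2* (−0.36) were lower and *Hras* (0.33), a Ras gene, was higher, each with an adjusted p under 0.01. No gene of this list was called lower without control 3 or without mutant 3, nor with DESeq2, other normalizations or other count filters.

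Of 22 genes of p75 partners and effectors, all tested, 1 was called higher and 0 lower, with a median of 0.01. *Tnfrsf19* encodes TROY, a receptor that can take the place of p75 in the Nogo receptor complex, and it was counted at 54.3 ± 1.25 and 77.2 ± 3.82 CPM, with a log2 fold change of 0.51 (SE 0.06, edgeR quasi-likelihood adjusted p = 0.0003068). *Lingo1*, another subunit gene of that complex, stood at −0.25, *Rtn4*, the gene of the ligand Nogo, at 0.21 and *Mapk8*, the gene of the kinase JNK1, at −0.31, each with an adjusted p under 0.01 and a fold change under the threshold. Without control 1 or without mutant 3 no gene of this list was called higher.

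No gene was called in the other 5 lists, but 1 of the other receptor genes was called higher without control 3, without mutant 2, with library size alone and with the Y-chromosome covariate, 1 gene of precursor processing lower without control 2 and 1 regulator of *Bdnf* lower without mutant 2. The 5 other receptor genes were all tested, with a median log2 fold change of 0.32 and *Sorcs2*, a sortilin relative that pairs with p75, at 0.48 (edgeR quasi-likelihood adjusted p = 0.001295) and 59.5 ± 2.28 against 83.1 ± 7.58 CPM. Of 12 genes of precursor processing 9 were tested, with a median of 0.07. *Cpe*, the gene of carboxypeptidase E, stood at 0.34 and *Plat*, the gene of tissue plasminogen activator, at 0.37, while *Pcsk5*, a proprotein convertase gene, stood at −0.48, all with an adjusted p under 0.01. Of 11 genes of Trk trafficking and turnover, all tested, *Lrig1*, a gene of a membrane regulator of receptor kinases, stood at 0.23 with an adjusted p under 0.01, and the median was 0.04.

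Of 12 genes known to be induced by Trk signaling 11 were tested and 0 had an adjusted p under 0.01. Their median log2 fold change was −0.12, and it ran from −1.02 for *Egr3* (edgeR quasi-likelihood adjusted p = 0.1653), at 1.01 ± 0.513 and 0.5 ± 0.189 CPM, to 0.30 for *Fos*. *Dusp6*, a feedback phosphatase gene of the ERK cascade, had the smallest p of the list, at −0.32 (adjusted p = 0.01884). Of 12 genes of regulators of *Bdnf* transcription, all tested, the median was 0.03. *Mef2c*, which encodes an activity-dependent transcription factor, stood at 0.40 with an adjusted p under 0.01 and *Creb1* at −0.39 (adjusted p = 0.03171).

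Other cell types that could hold these receptors were read from their markers. Of 7 markers of meninges 3 were called higher, 2 did not pass the test with higher means and 2 did not pass with lower means. Of 6 markers of the oligodendrocyte lineage 5 were called higher, whereas *Pdgfra*, a marker of its progenitors, was lower with a log2 fold change of −0.45 (edgeR quasi-likelihood adjusted p = 0.0003071), short of the fold change threshold, and it was singled out after its values had been seen. Of 6 markers of GABAergic progenitors and interneurons 3 were called higher and 1 lower, and of 5 markers of glutamatergic nuclear neurons 1 was called higher and 0 lower. Among the latter, 4 had positive log2 fold changes. *Slc17a6* was lower at −0.49 (edgeR quasi-likelihood adjusted p = 0.0004588), short of the fold change threshold. Of 6 endothelial and 5 mural cell markers 0 were called, and so were 0 of 5 for microglia, of 5 for erythrocytes and of 4 for peripheral sensory neurons. Choroid plexus markers summed to 140.7, 109.0 and 74.2 CPM in the controls and to 192.6, 11.5 and 748.7 CPM in the mutants, with 0 of 5 called. Between mutant 2 and mutant 3, where that sum differed most, *Ntf3* stood at 0.847 and 1.37 CPM, *Ngfr* at 69.7 and 72.3 CPM and *Ntrk2* at 445.2 and 464.6 CPM. The part of these cells in the results was not tested.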

How the data were processed

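The authors sequenced poly-T-selected RNA of P1 cerebella in 6 libraries, 3 per group, with paired ends. The submitters' processing notes name HISAT2 2.0.5, featureCounts 1.5.0-p3 and the build mm10. Reads had been filtered for quality before alignment. The deposited counts are not normalized, and the authors derived the deposited FPKM from these counts and the length of each gene. The annotation release and the strand setting are not given in the sources used here, but coordinates and exon lengths of the 7 genes equal those of GENCODE M21. The authors used DESeq2 for their own comparison.

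Counts were filtered with filterByExpr (17505 of 54532 genes kept, holding 99.8% of counts), TMM-normalized and tested with edgeR 4.0.16 (glmQLFit, glmQLFTest) in R 4.3.3 with Benjamini-Hochberg adjustment over all tested genes. A call needed an adjusted p under 0.01 together with a log2 fold change over 0.5 in size. CPM means counts per 1000000 TMM-normalized counts. Samples were grouped by the labels alone. The labels do not say whether each library is 1 animal, so the p-values measure only the spread between these samples. Each group held libraries with and without Y-chromosome counts, so the libraries of a group cannot all stem from 1 animal. Between libraries of a group that are alike in these counts, the spread may be technical. Same-group libraries differed by more than sampling noise. Genes named were the 7 members, *Tox3*, *Atoh1*, per pathway list the called genes and at most the 5 smallest p, per marker list at most the 2 smallest p, and the 3 genes most like each called member, and genes outside this rule are marked. Some genes of the lists are not reported here. The genes and lists were chosen with earlier results of these data known. Alternatives were DESeq2 1.42.0, other normalizations and filters, limma 3.58.1 (limma-trend) on the FPKM with a pseudocount of 1 or 0.1 before the log2, a replicate block, a covariate for Y-chromosome genes, other thresholds and each library left out. On simulated counts for this comparison, edgeR called 100 of 100 genes changed 4-fold and 99 of 100 changed 2-fold, with 2 false calls among 17543 genes. The changed genes were all well counted and every gene had the same dispersion. The simulation thus does not cover genes counted as low as *Bdnf* or as variable as *Ntrk3*.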

Additional observations from a re-analysis of the deposited data

How the results depend on the processing

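*Ntf3* was called lower under all 18 alternatives, with log2 fold changes between −3.58 and −2.35. *Ngfr* kept its direction under all 18, between −0.59 and −0.45, and its call under 12. It fell short of the fold change threshold with library size alone (−0.497), with limma-trend on log2(FPKM + 1) with and without a filter (−0.485 each) and without control 2 or mutant 2 (−0.590 to −0.453 over the libraries left out), and short of the p threshold under glmTreat (−0.515). In those 6 settings 1 of the 7 genes was called lower (0 higher), and 1 to 2 were with a library left out. *Ntrk2* (0.27 to 0.31) was called only at an adjusted p under 0.05 with no fold threshold (0.285), where 1 gene was called higher. *Ntrk3* changed sign with library size alone (0.00725), the Y-chromosome covariate (0.148), limma-trend on log2(FPKM + 1) with and without a filter (0.00376 each) and on log2(FPKM + 0.1) (0.00643), and with a library left out (−0.171 to 0.0979); the cause was not tested. *Bdnf* (−0.70 to −0.09, 16 fits) and *Sort1* (0.06 to 0.11) were never called. Both FPKM ratios kept their direction under 8 alternatives (−3.35 to −2.57 and 0.19 to 0.47).

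Of the pathway genes, 0 were called lower with DESeq2, DESeq2's size factors, library size alone, either count filter, any limma fit and glmTreat, 13 at an adjusted p under 0.05 with no fold threshold, and 0 to 2 with a library left out. Called higher were 2 with DESeq2, its size factors, the filter at 10 counts and the covariate, 3 with library size alone, 0 with either log2(FPKM + 1) fit and glmTreat, 15 at an adjusted p under 0.05 with no fold threshold, and 0 to 3 with a library left out. Counts over all genes, 635 lower and 530 higher, moved by over 1.5 times to 388 and 281 on log2(FPKM + 1), 286 and 176 without its filter, 145 and 30 under glmTreat and 2252 and 2136 at an adjusted p under 0.05, and the higher count to 335 on log2(FPKM + 0.1) and 349 without mutant 3. Same-numbered libraries deviated together with r of 0.243, 0.265 and −0.163, and control 1 deviated most like mutant 3 (0.268). The r was positive for pairs alike in Y-chromosome counts and negative for the others, among them control 3 with mutant 3. These values therefore cannot decide whether same-numbered libraries were paired. With the replicate block the log2 fold changes were −3.42 for *Ntf3*, −0.51 for *Ngfr*, 0.28 for *Ntrk2*, −0.41 for *Bdnf*, 0.09 for *Sort1* and −6.4e-05 for *Ntrk3*, with 2 of the 7 genes called lower, 1 pathway gene called in each direction, and 696 lower and 561 higher among all genes, so the block changed no call of the 7.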
